A study of Caenorhabditis elegans with 6 samples.

Results

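The genes named col make up most of the cuticle collagen family of *Caenorhabditis elegans*. Every gene probe of the arrays whose sequence name mapped to a symbol starting with col- was taken, whatever its value. This gave 151 probes among 22490 gene probes. They stood for 97 genes with at least 1 tested probe and 41 genes without. A further 21 col symbols of the annotation had no probe of their own, among them the adult genes col-7 and col-62. These are not analysed here. No probe carried the name col-6 either. The members col-182 and col-66 are annotated as pseudogenes.

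The cuticle of a nematode is an extracellular coat that the epidermis secretes anew at each moult. Its main building blocks are short collagens, each with a signal or membrane anchor and blocks of Gly-X-Y repeats, which assemble as trimers, are cut, and are cross-linked into the coat. Many of these genes are transcribed in a brief pulse before a moult, and some only at a given stage, such as the dauer larva or the adult. Their transcript levels in whole animals therefore move with developmental time.

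Wild-type N2 nematodes were grown from eggs on agar dishes with the organophosphorus insecticide chlorpyrifos (CPF, 0.5 mg/l), which inhibits acetylcholinesterase, or with the acetone solvent as control. Both were kept at 24 °C. The labels give L3/L4 larvae at 72 h, whereas a shorter time is given for 24 °C in the study's methods, and the sources used here do not settle which applies. On each of 6 arrays, a CPF sample was hybridised against a control sample. The CPF sample carried the dye Cy5 on 3 of them (called CPF in Cy5) and the dye Cy3 on the remaining 3 (called CPF in Cy3). Each sample pooled the animals of several dishes, and per the study the 6 samples of a treatment were independent. RNA came from whole animals, so fewer epidermal cells, less RNA per cell and a different moment of the moulting cycle cannot be told apart.

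Brightness is given below as the log2 of the background-corrected and normalised intensity of a channel, and a ratio is the log2 brightness of the CPF channel minus that of the control channel of the same spot. A difference of 1 is thus a doubling. Brightness depends on the probe as well as on the transcript and does not order genes by transcript number. All directions follow the dye labels of the scanner files. The 6 columns of the deposited ratio table each matched the same-numbered array of the opposite orientation, so that by the labels of that table every sign would turn.

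Some arrays stood apart from the rest. The share of gene probes above local background ran from 35.2% to 56.1% in the Cy3 channels and from 38.3% to 53.4% in the Cy5 channels. On CPF in Cy3 replicate 1 the ratios of all tested probes had an SD of 0.90, against 0.42 to 0.47 on the other 5 arrays. The Cy5 channel of that array, which held the control sample, was also read at a detector voltage setting of 60, against 55 on the others. Scanning of the 3 CPF in Cy3 arrays came first, followed by that of the CPF in Cy5 arrays. Orientation, scan order and animals cannot be told apart. In addition, 1 of the 48 print blocks was read at the wrong place on both replicate 3 arrays. It held 8 col probes, which are described separately below.

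The family was among the brightest on the arrays. All 12 channels lay above background for 73 col probes, or 48.3%, against 26.5% of all gene probes. These belonged to 68 genes. A probe was tested where at least 6 channels were above background, which left 102 col probes of 97 genes, or 67.5% of the members against 49.1% of all gene probes. Brighter than 90% of all gene probes were 74 members, or 49.0%, and brighter than 99% were 12 members, or 7.95%. The median brightness over the tested col probes was 11.70, against 9.01 over all tested probes.

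The 5 brightest members were col-155, col-3, col-94, col-157 and col-154, with mean brightness between 15.59 and 15.78. For col-155 (F55C10.3) the CPF channel read 16.03, 15.52 and 15.66 on CPF in Cy5 replicates 1 to 3 and 15.48, 16.04 and 15.83 on CPF in Cy3 replicates 1 to 3. Its control channel read 15.66, 16.24 and 15.77 on the same CPF in Cy5 arrays and 15.84, 15.65 and 15.61 on the CPF in Cy3 arrays. The CPF and control values overlapped in part, with the lowest value in CPF and the highest in control. Together with col-133, these genes had saturated pixels in 11 or 12 channels, reaching 50.7% of the pixels of a spot, so that their brightness was capped by the scanner. Their fitted ratios lay between -0.06 and -0.01, with standard errors of 0.15 to 0.17. Among all members 12 probes had a saturated pixel in any channel.

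At the other end, 37 col probes were above background in 0 of 12 channels, and for 29 genes this held for every probe. They included col-2 and col-40, which are known from the dauer larva and its approach, and col-10. For col-2 (W01B6.7) the CPF channels read 6.20 to 6.78 and the control channels 6.12 to 7.29. In col-40 (T13B5.4) the brightest CPF channel read 6.52 and the brightest control channel 6.38. Neither gene was detectable in any sample with these probes. Both probes of col-99, which codes for a membrane-spanning collagen rather than a cuticle component, were also in this set. A further 12 probes passed in 1 to 5 channels, the nearest to the filter being col-69 with 5, and these 49 probes of low signal entered no test. Just inside the filter, col-36 and col-84 passed in 6 channels. These were 5 CPF channels and 1 control channel for col-36, and 4 and 2 for col-84.

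**Figure D1:**
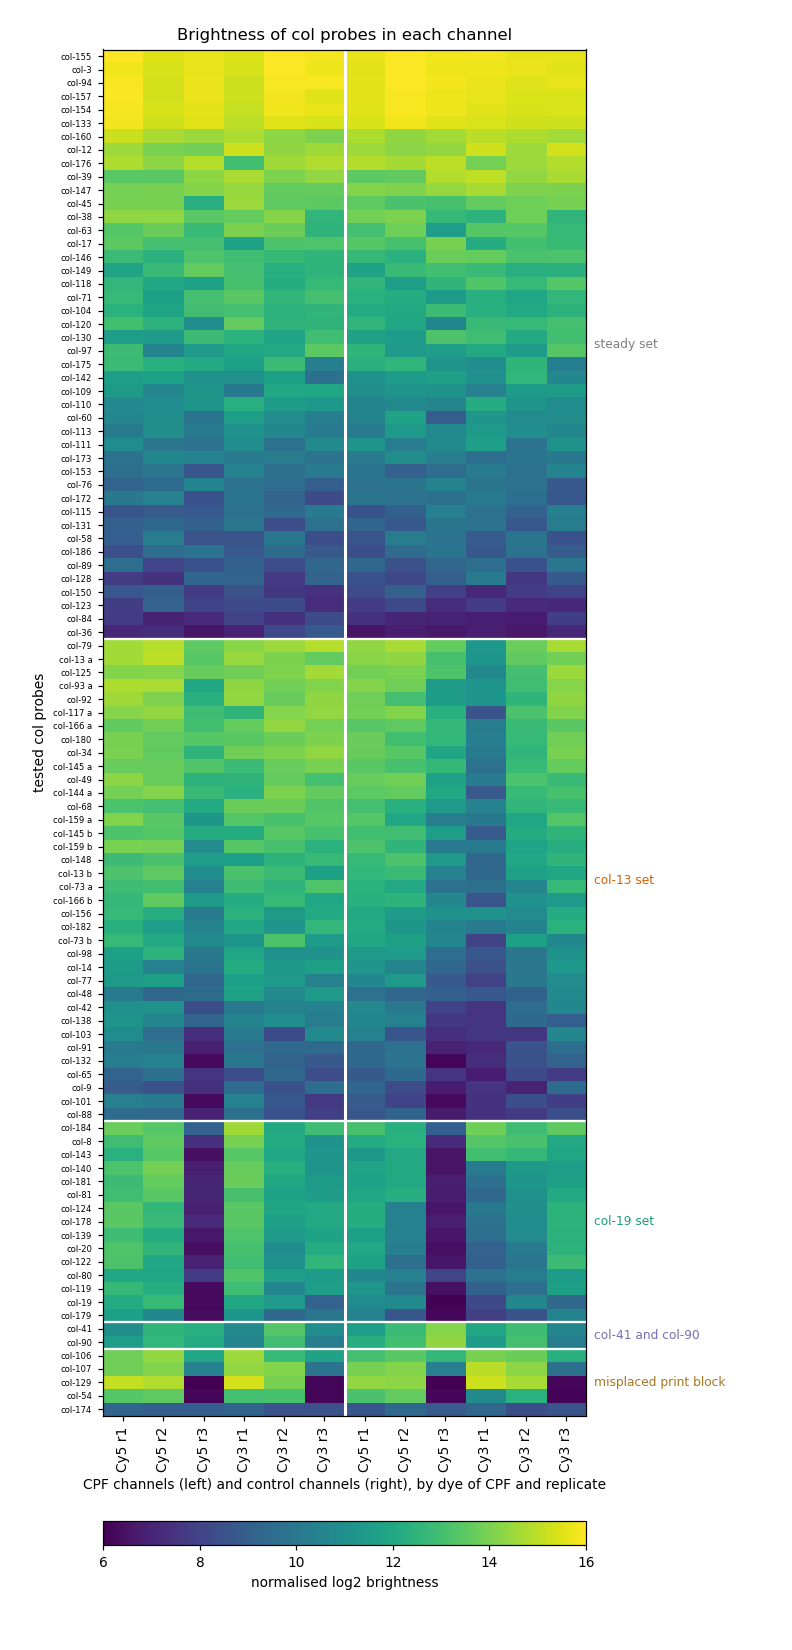
Log2 brightness of the tested col probes in each of the 12 channels, with CPF channels left of control channels and probes ordered by set and mean brightness. The col-19 set is dark in both channels of CPF in Cy5 replicate 3, with medians of 6.86 in CPF and 6.62 in control. Both the col-13 set and the col-19 set are darker in control than in CPF on CPF in Cy3 replicate 1, with control medians of 9.10 and 9.66.

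Levels of the col probes moved more between arrays than those of all tested probes. By median the tested col probes were also brighter, at 11.70 against 9.01, and spans were not compared at like brightness. The mean brightness of the 2 channels of a spot spanned a median of 2.03 over the 6 arrays for the 97 tested col probes outside the misplaced print block, against 1.45 for all 10781 tested probes outside it. A span above 2, or over 4-fold, was reached by 51 of these col probes (52.6%), against 17.6% of all tested probes. A span above 5 was reached by 13 of them (13.4%), against 0.38% of all, so that col probes made up 13 of the 41 probes with so large a span. No tested col probe outside the block had a fitted ratio larger in size than its span over arrays. The span is a highest minus a lowest value and the fitted ratio an average, so their sizes are not on like terms. The same count over all tested probes was not made, and nothing particular to col genes follows from it.

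The probes were grouped by the shape of their brightness over the 12 channels (average linkage on centred values). The choice of 4 sets was made after the values were seen, so the sets are a description and were given no test. CPF and control channels both entered the grouping, so the ratios of a set follow in part from how it was formed. They are named below by their best-known genes.

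The col-19 set held 15 genes, col-8, col-19, col-20, col-80, col-81, col-119, col-122, col-124, col-139, col-140, col-143, col-178, col-179, col-181 and col-184. What they shared was a drop of signal in both samples of CPF in Cy5 replicate 3. There the set had a median brightness of 6.86 in the CPF channel and 6.62 in the control channel. On the other arrays its medians ran from 11.50 to 13.30 in CPF and from 9.66 to 12.05 in control. For 12 of the 15, both channels of this array were lower by over 2 log2 units than any channel of any other array. That was 12.4% of the tested col probes outside the block, against 0.306% of all tested probes, or 33 probes in all. Among the 33 were also the yolk protein genes vit-2, vit-3, vit-4, vit-5 and vit-6, which the adult intestine transcribes.

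The gene col-19 (ZK1193.1) codes for a collagen of the adult cuticle and is a standard marker of the larva-to-adult switch of the epidermis. Its CPF channel read 12.17, 12.69 and 6.25 on CPF in Cy5 replicates 1 to 3 and 11.95, 11.36 and 9.16 on CPF in Cy3 replicates 1 to 3. Its control channel read 10.84, 10.76 and 6.04 on the CPF in Cy5 arrays and 8.18, 10.58 and 9.45 on the CPF in Cy3 arrays. The ratio was 1.33, 1.93 and 0.21 on the CPF in Cy5 arrays and 3.76, 0.79 and -0.29 on the CPF in Cy3 arrays. Both samples read above 10 on 3 arrays, CPF in Cy5 replicates 1 and 2 and CPF in Cy3 replicate 2. Only the CPF sample did so on CPF in Cy3 replicate 1, both samples were lower on CPF in Cy3 replicate 3, and neither was above background on CPF in Cy5 replicate 3. Its fitted ratio was 1.29 ± 0.46 (SE, n = 6 arrays, adjusted p = 0.132 in limma), and the CPF and control channels overlapped.

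Yolk and sperm genes mark animals that are adult or close to it. All 6 listed yolk genes were tested, and their median brightness over the arrays ran from 10.44 to 15.08 in CPF and from 8.05 to 15.27 in control. The lowest values of both ranges came from CPF in Cy5 replicate 3, the array on which the col-19 set was dim. The major sperm protein genes, 13 of 15 tested, were also dimmest on that array in both channels, with a median of 13.76 in CPF, and their median ratio there was 1.69. Of the yolk genes 5 were called higher in CPF (vit-1, vit-3, vit-4, vit-5 and vit-6) and 0 lower. Of the sperm genes 2 were called higher (msp-50 and msp-63) and 0 lower. Over all tested probes the shares were 1.33% higher and 2.17% lower. The median yolk ratio was 1.15, 1.33 and 2.39 on the CPF in Cy5 arrays but 0.08, -0.10 and 0.001 on the CPF in Cy3 arrays. For the sperm genes the medians were 0.68, 0.57 and 1.69, and -0.23, 0.04 and -0.14, in the same order. Whether animal age differed between the samples of an array was not tested.

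The col-13 set held 36 probes of 31 genes, among them both probes each of col-13, col-73, col-145, col-159 and col-166. By median the set was dimmest in the control channel of CPF in Cy3 replicate 1, at 9.10, against 12.27 in the CPF channel of the same array. It was also lower than elsewhere on CPF in Cy5 replicate 3, where the CPF channel had a median of 10.85. In the other 5 control channels the medians were 12.49, 12.19 and 10.54 on CPF in Cy5 replicates 1 to 3 and 11.69 and 12.31 on CPF in Cy3 replicates 2 and 3. The low control channel of CPF in Cy3 replicate 1 was not particular to the col-13 set. In the col-19 set the medians on that array were 9.66 in control and 13.30 in CPF. The median ratio there was 3.63 in the col-19 set and 3.14 in the col-13 set. In the probe of col-117 that gave signal, the ratio was 0.31, 0.29 and 0.57 on the CPF in Cy5 arrays and 3.92, 1.04 and 0.28 on the CPF in Cy3 arrays. Its control channel read 8.63 on CPF in Cy3 replicate 1, against 12.33 to 14.10 elsewhere, whereas its CPF channel read 12.55 there, against 12.91 to 14.39 elsewhere. Every one of the 36 probes had a fitted ratio above 0, from 0.36 to 1.35 with a median of 1.01, and for 17 the ratio was positive on all 6 arrays.

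The genes col-41 (T10B10.1) and col-90 (C29E4.1) formed a set of their own. In col-90 the CPF channel read 11.55, 12.62 and 12.13 on the CPF in Cy5 arrays and 10.56, 12.92 and 10.28 on the CPF in Cy3 arrays. The control channel read 12.24, 12.96 and 14.33 on the CPF in Cy5 arrays and 11.53, 13.04 and 10.24 on the CPF in Cy3 arrays. The highest of these values was the control sample of CPF in Cy5 replicate 3, the array on which col-19 was not above background. The ratio of col-90 there was -2.19, and that of col-41 was -1.92. Their fitted ratios were the lowest of the family, -0.71 ± 0.24 for col-90 (SE, n = 6, adjusted p = 0.119, limma) and -0.56 ± 0.27 for col-41 (adjusted p = 0.215).

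The remaining 44 probes, called the steady set here, showed neither drop in their medians, although single members did vary. Their median brightness lay between 11.56 and 12.50 in CPF and between 11.50 and 12.41 in control over the arrays. The fitted ratios ran from -0.45 to 0.72 with a median of -0.05, and 15 of the 44 were positive. At the upper end was col-36, which had 1 control channel above background. The 6 genes saturated in 11 or 12 channels belonged here, as did col-12 and col-120. The ratio of col-120 (Y11D7A.11) was 0.39, 0.51 and 0.30 on the CPF in Cy5 arrays and 0.84, -0.17 and -0.54 on the CPF in Cy3 arrays, so that its sign differed between arrays. Its brightness on CPF in Cy5 replicate 3 was 10.89 in CPF and 10.58 in control, its lowest in both. The steady members col-150 and col-84 had ratios of 1.32 and 1.10 on CPF in Cy3 replicate 1.

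**Figure D2:**
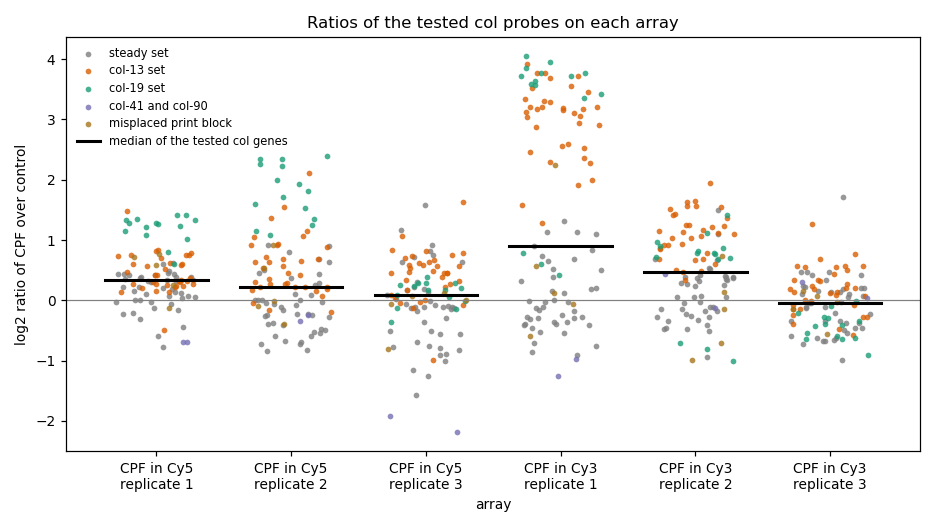
Log2 ratio of CPF over control for each tested col probe on each of the 6 arrays, coloured by set, with the median of the col genes on each array. The medians are 0.34, 0.23 and 0.09 on CPF in Cy5 replicates 1 to 3 and 0.89, 0.47 and -0.04 on CPF in Cy3 replicates 1 to 3, and the spread is widest on CPF in Cy3 replicate 1.

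The comparison of CPF with control asked whether transcript levels of these genes changed with the toxicant. On CPF in Cy3 replicate 1 a ratio above 1 was measured for 53 of 102 col probes, or 52.0% against 16.0% of all tested probes. There 34 col probes exceeded 3, an 8-fold difference, and these were 34 of the 155 probes on the whole array that did so. Of the 34, 22 were in the col-13 set and 12 in the col-19 set. On CPF in Cy3 replicate 3, in contrast, 2 col probes exceeded 1, and 0 of the 15 probes of the col-19 set were positive. The number of col probes with a positive ratio was 87, 64 and 60 on CPF in Cy5 replicates 1 to 3 and 72, 75 and 47 on CPF in Cy3 replicates 1 to 3.

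Arrays were alike in which col genes were higher in some cases only. Over the 102 col probes, the ratios of CPF in Cy5 replicates 1 and 2 correlated at 0.735 and those of CPF in Cy3 replicates 1 and 2 at 0.733. The ratios of CPF in Cy5 replicate 2 and CPF in Cy3 replicate 3 correlated at -0.245, the lowest of the 15 array pairs. These values describe how the probes were ordered. They share dye chemistry and print layout, and probes are not independent replicates.

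Fitted over the 6 arrays with a dye term, the ratios of col genes were above 0 more often than below. The median over the 97 tested genes was 0.39, against 0.01 over all tested genes. The deposited ratios gave a median of 0.15, and leaving out CPF in Cy3 replicate 1 gave 0.26. Over the 68 genes above background in all 12 channels it was 0.0265, with 35 of the 68 positive. A positive fitted ratio was found for 64 genes (66.0%), against 50.9% of all tested genes. It was above 1 for 25 genes, or 25.8% against 1.14% of all, and below -1 for 0 genes. The spread between arrays was also large, with a median standard error of 0.24 over the tested col probes, against 0.13 over all tested probes. Under this error 3 of the 102 col probes (2.94%) passed an adjusted p of 0.05 in limma, all of them higher in CPF. The share of all 11033 tested probes that passed was 3.50%, with 1.33% higher and 2.17% lower, so the share of col probes called was near that of all probes. At an unadjusted p of 0.05, 56 col probes passed, 49 higher and 7 lower, or 54.9% against 27.3% of all. The dye term was called for 0 col probes, against 0.00906% of all tested probes. At an unadjusted p of 0.05 it passed for 9 col probes, against 9.89% of all tested probes.

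The gene with the smallest adjusted p was col-138 (C52D10.13). Its CPF channel read 11.19, 10.55 and 9.25 on CPF in Cy5 replicates 1 to 3 and 10.46, 10.92 and 10.26 on CPF in Cy3 replicates 1 to 3. Its control channel read 10.63, 10.39 and 7.62 on the CPF in Cy5 arrays and 7.53, 9.41 and 8.98 on the CPF in Cy3 arrays. The CPF channel was the brighter on 6 of 6 arrays, although CPF and control values overlapped across arrays. All 6 CPF channels were above background, against 4 of the control channels. The ratios were 0.56, 0.16, 1.63, 2.93, 1.51 and 1.27 in the same order, and the fitted ratio was 1.35 ± 0.25 (SE, n = 6, adjusted p = 0.0336), or 2.54-fold higher in CPF.

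The gene col-73 (F11G11.12) was called with 1 of its 2 probes. On the called probe the CPF channel read 12.89, 12.96 and 10.43 on the CPF in Cy5 arrays and 12.90, 12.49 and 13.26 on the CPF in Cy3 arrays. The control channel read 12.38, 12.04 and 9.75 on the CPF in Cy5 arrays and 9.70, 10.55 and 12.70 on the CPF in Cy3 arrays. The CPF channel was again the brighter on all 6 arrays, by 0.51 on CPF in Cy5 replicate 1 and by the most, over 3, on CPF in Cy3 replicate 1, and both channels were lower on CPF in Cy5 replicate 3 than on the other CPF in Cy5 arrays. The fitted ratio was 1.30 ± 0.28 (SE, n = 6, adjusted p = 0.0478), or 2.46-fold higher in CPF. The other probe gave 1.14 ± 0.27 with an adjusted p of 0.0568, just outside the threshold.

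The remaining call was col-65 (K08C9.4), a dim probe. Its CPF channel read 9.21, 9.70 and 7.54 on the CPF in Cy5 arrays and 8.39, 9.36 and 8.35 on the CPF in Cy3 arrays, against 8.84, 9.40 and 7.49 and 6.82, 8.23 and 7.78 in its control channel. The ratio was above 0 on all 6 arrays, from 0.05 on CPF in Cy5 replicate 3 to 1.57 on CPF in Cy3 replicate 1. The fitted ratio was 0.67 ± 0.14 (SE, n = 6, adjusted p = 0.0443), or 1.59-fold higher in CPF.

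All 3 calls lay in the col-13 set, and each was lost when any of CPF in Cy5 replicate 1, 2 or 3 or CPF in Cy3 replicate 2 was left out. In the same order, these fits called 58, 81, 94 and 77 of all 11033 tested probes, against 386 from all 6 arrays. Calls were thus lost over the whole table, to shares of 0.526% to 0.852% from 3.50%. Without CPF in Cy3 replicate 3, on which the median col ratio was -0.04, 49 col probes were called, 33 of them in the col-13 set and 12 in the col-19 set among 1323 called of all 11033 tested probes. Without CPF in Cy3 replicate 1, which had the largest ratios, 18 col probes were called, 17 of them in the col-13 set and 0 in the col-19 set, and 7.31% of all tested probes. The fits without 1 of these arrays shared 17 calls, and both held the 3 calls from all 6 arrays.

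Fitted ratios as large as those of the called probes, with larger standard errors, did not pass. The highest was that of col-122 (T05A1.2), with 1.41, 2.35 and 0.29 on the CPF in Cy5 arrays and 3.85, 1.11 and -0.27 on the CPF in Cy3 arrays. Its fitted ratio was 1.45 ± 0.48 (SE, n = 6, adjusted p = 0.110). Of the 10 genes with the highest fitted ratios, taken by their brightest probe, col-122, col-119, col-178, col-20, col-19, col-124 and col-181 were in the col-19 set and col-138, col-159 and col-73 in the col-13 set. Over the col-19 set the fitted ratios ran from 0.13 to 1.45 with a median of 1.25. In that set 0 of 15 genes were called, with 12 at an unadjusted p of 0.05 and adjusted p from 0.110 to 0.716.

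Lower values were small and more even between arrays. After col-90 and col-41, the lowest fitted ratios were -0.45 for col-111, -0.38 for col-113 and -0.37 for col-89. They were followed by col-146 at -0.36, col-147 at -0.30, col-118 and col-128 at -0.29 and col-39 at -0.28. In col-147 (T06E4.4) the ratio was -0.23, -0.12 and -0.30 on the CPF in Cy5 arrays and -0.28, -0.48 and -0.38 on the CPF in Cy3 arrays, below 0 on 6 of 6, with an adjusted p of 0.107 in limma. The ratio was below 0 on every array for col-39, col-111, col-113 and col-147, or 3.92% of tested col probes against 8.10% of all. It was above 0 on every array for 20 col probes, or 19.6% against 8.45% of all. None of the probes with a negative fitted ratio passed the adjusted threshold.

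**Figure D3:**
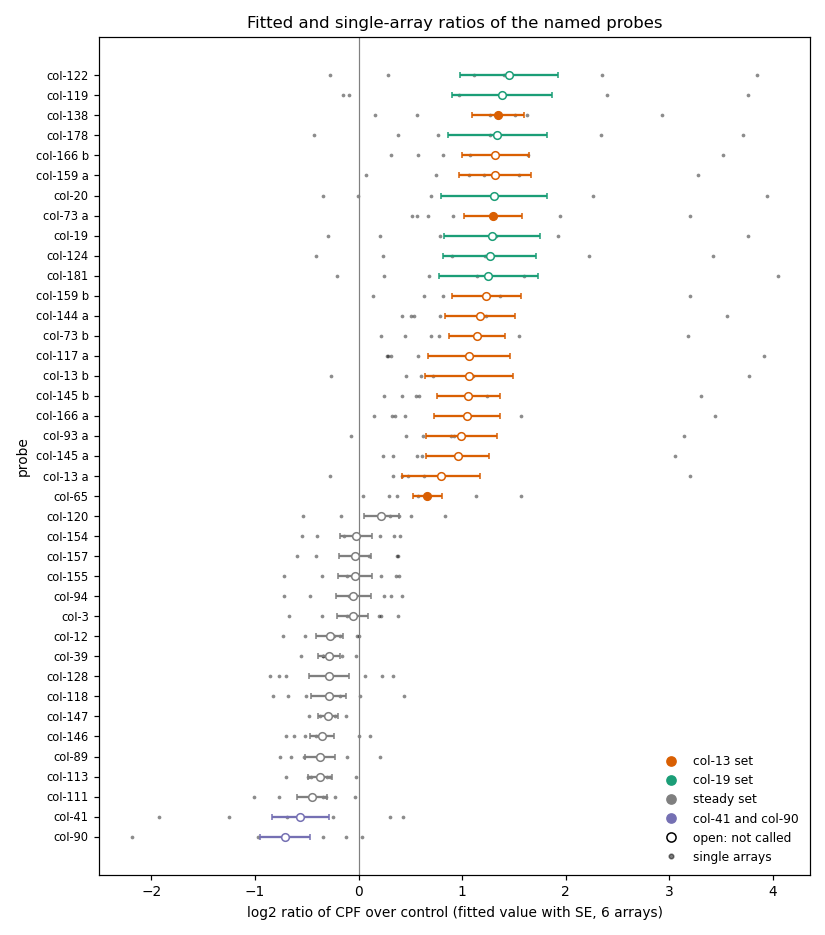
Fitted log2 ratio of CPF over control of the 39 named col probes in order of size, coloured by set, with bars of 1 standard error (n = 6 arrays). Small points are the ratios of single arrays, and the 3 called probes are filled. The called probes are col-138 at 1.35, col-73 at 1.30 and col-65 at 0.67. Bars of col-138 and col-73 are shorter than those of most drawn probes of like height.

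Where 2 probes of a col gene were tested, they gave close ratios. The fitted ratios of the pair were 0.80 and 1.07 for col-13, 1.30 and 1.14 for col-73, 0.96 and 1.06 for col-145, 1.32 and 1.24 for col-159 and 1.05 and 1.32 for col-166. On CPF in Cy3 replicate 1, where the ratios were largest, the probes of a gene differed by a median of 0.08 and at most by 0.58, in col-13. Over all 819 genes with 2 tested probes the median difference on that array was 0.88, and 359 genes (43.8%) had probes more than 1 apart. The paired col probes had a brightness of 11.34 to 13.79, against a median of 9.01 over all tested probes. Differences between probes were not compared at like brightness. The col genes were not closer on every array. The median difference was 0.43 for the col genes against 0.23 for all such genes on CPF in Cy5 replicate 3, and 0.30 against 0.33 on CPF in Cy3 replicate 2. On CPF in Cy5 replicates 1 and 2 and CPF in Cy3 replicate 3 it was 0.17, 0.18 and 0.13 for the col genes, against 0.21, 0.29 and 0.21 for all. The largest difference between the probes of a col gene on any array was 0.72, in col-166 on CPF in Cy5 replicate 2.

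In other genes the probes differed in whether they gave signal at all. The genes col-93, col-117 and col-144 each had 1 probe above background in all 12 channels, while their other probes, 2 each for col-93 and col-117 and 1 for col-144, were at 0 of 12. The single bright probe of col-144 gave ratios of 0.42, 0.54 and 0.79 on the CPF in Cy5 arrays and 3.56, 1.23 and 0.51 on the CPF in Cy3 arrays, all above 0, with a fitted ratio of 1.17 and an adjusted p of 0.0842 in limma. For these genes the ratio rests on that probe alone. None of the 3 probes of col-108 or the 2 of col-99 was tested.

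**Figure D4:**
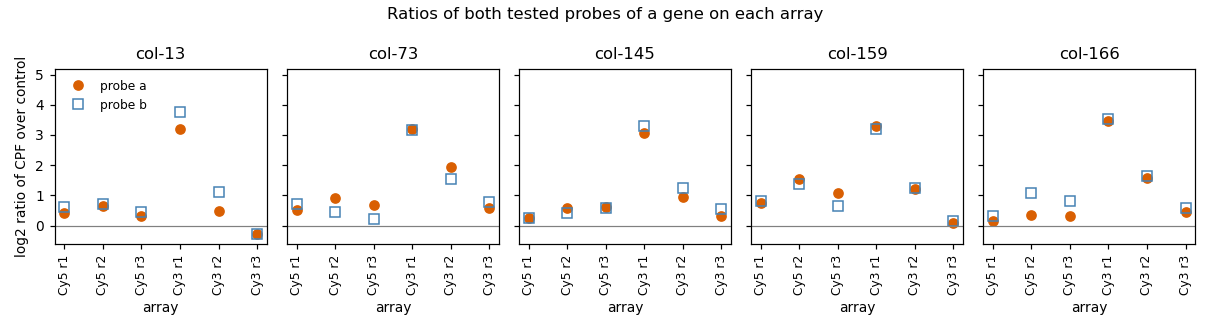
Log2 ratio of CPF over control on the 6 arrays for both tested probes of col-13, col-73, col-145, col-159 and col-166. Circles and squares stand for the probes of a gene and lie close together, with a largest gap of 0.72 in col-166 on CPF in Cy5 replicate 2.

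Genes next to each other in the genome fell in the same set about as often as other pairs. Of the 12 pairs of tested col genes that are neighbours in the annotation, 4 fell in the same set (33.3%), against 36.2% of all pairs of tested col genes, and 7 had fitted ratios more than 0.5 apart. The pair col-13 and col-12 had 0.80 and -0.28, col-159 and col-160 had 1.32 and -0.08, and col-80 and col-39 had 1.25 and -0.28. Closest were col-20 and col-73, with 1.31 and 1.30 although in different sets, and col-149 and col-150, with 0.17 and 0.13. Also alike were col-92 and col-93, with 1.14 and 0.99, col-178 and col-179, with 1.34 and 1.17, and col-144 and col-145, with 1.17 and 0.96. The 15 genes of the col-19 set lay on 5 chromosomes, with 5 on X, 3 each on II, IV and V and 1 on III. Close copies in this family may share signal on a probe, and the identity of the probes or proteins was not computed.

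A print block in block row 4 and block column 4 was displaced by 1 spot column on both replicate 3 arrays. As filed, its spots correlated with the other arrays at 0.279 on CPF in Cy5 replicate 3 and 0.257 on CPF in Cy3 replicate 3. Moved by 1 column they correlated at 0.935 and 0.976. The other 286 of 288 array blocks fitted best as filed, with correlations of 0.875 or more. Of the 8 col probes in this block, col-54, col-106, col-107, col-129 and col-174 were tested.

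Read as filed, col-54, col-107 and col-129 were much dimmer than at the neighbouring spot on both arrays. This did not hold for col-106 and col-174. On CPF in Cy5 replicate 3 the CPF channel of col-106 read 11.86 as filed and 10.10 at the neighbouring spot. That of col-174 read 8.97 and 8.86. In col-54 the values as filed on CPF in Cy5 replicate 3 were 6.13 in CPF and 6.19 in control, and those of the neighbouring spot were 11.73 in CPF and 12.19 in control. On CPF in Cy3 replicate 3 the values as filed were 6.15 in CPF and 6.08 in control, against 12.85 in CPF and 12.78 in control at the neighbouring spot. With the block moved, col-54 and col-129 were above background in 12 channels in place of 8. The fitted ratio of col-54 was 0.52 as filed, 0.78 with the block left out on these arrays and 0.46 with it moved, with adjusted p of 0.205, 0.122 and 0.262 in limma. For col-107 the corresponding values were -0.11, -0.22 and -0.31. For col-106 they were -0.02, 0.31 and 0.16, so that its sign depended on this block, as did that of col-174 with 0.04, 0.07 and -0.08. The number of col probes called was 3 in each case, with 386 calls over all tested probes as filed, 409 with the block left out and 405 with it moved.

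**Figure D5:**
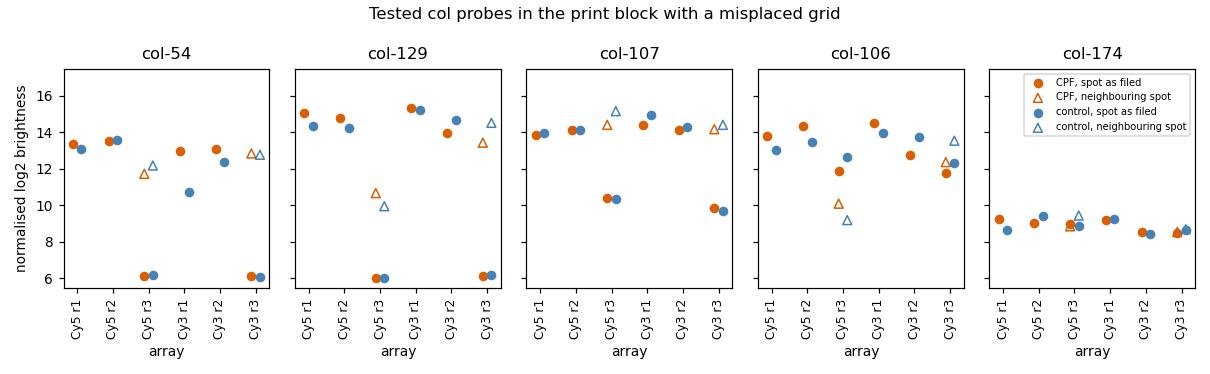
Log2 brightness of the CPF and control channels of the tested col probes in the displaced print block, as filed on all 6 arrays (filled points) and at the neighbouring spot on both replicate 3 arrays (triangles). For col-54 on CPF in Cy5 replicate 3 the neighbouring spot reads 11.73 in CPF and 12.19 in control, in place of 6.13 and 6.19 as filed.

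Cuticle collagens with other names, known from mutants of body shape, were compared from a list set by gene name. Of the 13 tested genes outside the furrow group, 0 were called, and their median fitted ratio was 0.77. On CPF in Cy3 replicate 1 their median ratio was 2.65. Medians there were 12.97 in CPF and 10.41 in control, the channel in which the col-13 and col-19 sets were also lower. Among these 13 genes bli-6 had 1.39 and dpy-13 had 1.20 as fitted ratios, whereas sqt-3 had -0.07. The 6 collagens of the annular furrows of the cuticle had a median of 0.14, and 1 was called, dpy-3, at 0.87 ± 0.10 (SE, n = 6). Over all tested probes 3.50% were called, 1.33% higher and 2.17% lower, and at that share lists this short would hold few calls.

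Genes for the proteins that process and assemble collagen had ratios near 0. Of 14 listed genes for hydroxylation, folding, cleavage and cross-linking, 12 were tested and 0 called, with fitted ratios from -0.36 to 0.14 and a median of -0.10. The prolyl 4-hydroxylase subunits had -0.06 (dpy-18), 0.14 (phy-2) and -0.10 (pdi-2), and the peroxidase mlt-7 and the dual oxidase bli-3, both of cuticle cross-linking, had -0.33 and -0.19. The collagens of basement membranes, let-2, emb-9 and cle-1, had a median of 0.10 with 0 called. Of 11 listed regulators of epidermal timing and moulting, 5 were tested and 0 called. Their fitted ratios were 0.50 for lin-28, -0.02 for lin-29, -0.05 for elt-3, -0.26 for nhr-23 and -0.28 for nhr-25. Markers of other cell types had fitted ratios of the same sign in some lists. Neuronal markers had negative fitted ratios for all 4 tested genes, with a median of -0.33, and intestinal markers for all 4, with a median of -0.21, and 0 of either were called. Eggshell and oocyte genes had positive ratios for all 7 tested, with a median of 0.36, and oma-2 was called at 0.57. Muscle and pharynx markers, with 5 and 3 genes tested, had medians of 0.05 and 0.07 and 0 calls. The part of these marker genes in the col ratios was not tested. For all lists of this paragraph, the share called over all tested probes was 3.50%, with 1.33% higher and 2.17% lower.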

How the data were processed

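Transcripts of whole nematodes were measured on 6 arrays with 2 channels each. Spots were read by the authors with the scanner's own software, per the file headers. The deposited scanner values used here were the mean and median intensity and the background intensity and its spread of each channel, with the percent of saturated pixels, which was deposited beside them. The authors also deposited a table of normalised log2 ratios, made per the labels with limma 3.2.3, which was used only as an alternative because its columns matched arrays of the opposite orientation. Precision is limited by the small number of arrays. No sequencing depth applies, and signal over background is given in its place.

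Background was corrected with normexp (offset 50), followed by loess normalisation of the ratios of an array and Aquantile normalisation between arrays, in limma 3.58.1 (R 4.3.3). A spot was above background where its median exceeded the background by over 2 SDs, and probes with at least 6 of 12 such channels were tested. None of the 619 empty spots passed (0). Ratios were fitted by lmFit and eBayes (2-sided), with terms for CPF and for the dye. Adjusted p-values are Benjamini-Hochberg values over all 11033 tested probes. The linear model named in the study's methods was kept as an alternative, read as a fit of single channels and run without removing outlying values. Its calls used the adjusted threshold, whereas the study applied a threshold on unadjusted p-values with error rates from permutation. Its count is therefore not that of the study. The scripts were tested on simulated data with known changes. Counts of genes use the brightest probe of each, and the letters a and b number probes of a gene.

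Sequence names were paired with symbols through the RefSeq table of WBcel235, which was used for names and neighbours only. Named genes were the called col probes, the 10 highest and 10 lowest fitted col genes, the 5 brightest, genes at 0 of 12 channels, genes with several probes, and col-2, col-10, col-12, col-13, col-19, col-40, col-99 and col-120. The genes col-54, col-106, col-107, col-129, col-174, col-36, col-84, col-69, col-133 and the members of the 4 sets were also named after their values were seen. The members and gene lists were chosen with earlier results of these data known.

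Alternatives covered background correction, normalisation, the dye term, the filter on dim probes, the replicate number as a block, same-numbered arrays averaged, array weights (gene by gene, since the REML estimate did not converge), spot medians, the deposited table, each orientation alone and each array left out. The alternatives on the displaced print block and on the scanner's quality codes, whose meaning the files do not define, were chosen after seeing the data. Array values of no other sample were used.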

Additional observations from a re-analysis of the deposited data

Results flagged for a closer look

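Across 40 items examined, each with its 6 array ratios, 7 had a ratio on a single array that lay apart from the other 5 by more than Dixon's 95% critical value for 6 values. Chance marks about 1 in 20 such groups where all 6 values have the same spread. That rate cannot be applied here, since the arrays differ in spread and the probes share them. Some items were also named for their high or low fitted ratios. In all 7 the array was CPF in Cy3 replicate 1, whose ratios were the most widely spread, and the ratio was the highest. Of all tested probes, 35.8% had their highest ratio on this array, and how many this rule would flag was not computed. The ratios there were 3.92 for col-117, 3.77 and 3.199 for the probes of col-13, 3.56 for col-144, 3.31 and 3.06 for the probes of col-145 and 3.15 for col-93. The gap to the next array took 0.661 to 0.792 of the range. All are members of the col-13 set, and on this array the control channel was read at a detector voltage of 60, against 55 on the others. The part of that setting in these values was not tested.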

How the results depend on the processing

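The number of arrays, the spread on CPF in Cy3 replicate 1 and the saturation of the brightest spots limit these results. The count of 3 called col probes (with that on the whole table in brackets) became 1 (243) without background correction, 0 (233) with plain subtraction, 0 (54) with median centring, 23 (1281) with scale normalisation, 0 (265) without a filter, 0 (205) without a dye term, 0 (8) in the study's linear model, 56 (3005) with array weights, 5 (387) with spot medians, 8 (700) from the deposited table, 20 (629) on the CPF in Cy5 arrays and 0 (20) on the CPF in Cy3 arrays. Counts for the study's linear model used the adjusted threshold of 0.05 and not the study's own unadjusted threshold. Leaving out an array gave 0 to 49 (58 to 1323). Without spots lacking the scanner's code 3 the count was 0 (139), an alternative chosen after seeing the data. Limited to probes above background in all 12 channels, it was 2 (256), the median col ratio was 0.0265 in place of 0.39 and the median brightness 12.4. The adjusted p of the called probes was below 0.05 in 13 of 25 alternatives for col-138 (0.000687 to 1.00), 9 of 25 for col-65 and 14 of 26 for col-73. The cause of these changes was not tested. Omitting the normalisation between arrays left every fitted ratio as it was, and the displaced print block held none of these probes. Those alternatives could therefore hardly change the calls.

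With directions from the scanner labels, the median ratio of the col genes stayed above 0 in every alternative run. The deposited ratios entered with each column set to the array it matched, and by the table's own labels their signs would turn. Among the 39 probes named by the rule, signs turned only for the 5 brightest, which have saturated spots and ratios near 0. In the order col-3, col-94, col-157, col-154 and col-155, the ratios with array weights were 0.0793, 0.11, 0.12, 0.14 and 0.11. From the deposited ratios they were 0.0715, 0.0981, 0.0995, 0.0924 and 0.11, and on the CPF in Cy3 arrays 0.0733, 0.0667, 0.0209, 0.0692 and 0.0844. Leaving out an array gave -0.16 to 0.0634 for col-3, -0.17 to 0.0899 for col-94, -0.15 to 0.0915 for col-157, -0.14 to 0.0946 for col-154 and -0.17 to 0.11 for col-155. With spot medians col-157 had 0.00893, and with scale normalisation col-154 had 0.00179.

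Replicate numbers are shared by both orientations, but same-numbered arrays deviated together at 0.103, -0.0788 and 0.271, so no pairing is shown. With the replicate number as a block 5 col probes were called (470 on the whole table, or 4.26%), and with same-numbered arrays averaged 3 (165 on the whole table).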
